A study of Mus musculus with 6 samples.

Results

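Endothelial nuclei of the septal area, a medial forebrain region between the lateral ventricles, were chosen from 6 single-nucleus RNA libraries of wild type mouse brain. A barcode was counted as endothelial if it held at least 500 genes, at most 5% mitochondrial RNA, at least 4 molecules of Flt1, at most 1 molecule of the pericyte genes Pdgfrb and Rgs5 together and at most 1 of the GABA-neuron genes Gad1 and Gad2 together. Molecules are unique molecular identifiers (UMIs), the tags by which droplet sequencing counts each RNA once. The rule kept 800 of the 54605 nuclei that passed the limits on genes and mitochondrial RNA. All 6 libraries belong to 1 group, wild type septal area, with no treatment in the labels. The sources used here do not give age, sex, strain, number of animals or dissection, and nothing says whether the libraries came from separate animals. Every p-value below therefore measures the spread between these libraries, which may be technical. The title speaks of nuclei and the protocol of single cells, and the barcodes are called nuclei here.

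Endothelial cells line every blood vessel. In the brain they form the blood-brain barrier: tight junctions seal the paths between cells, few vesicles cross the cell, and membrane carriers choose what enters and what is pumped back into the blood. Wnt signalling through beta-catenin, sent by cells of the neural tissue, is known to induce and hold this state. Pericytes and smooth muscle cells, together called mural cells, wrap the endothelial tube, and fibroblasts lie around larger vessels and in the meninges.

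The 6 libraries held 148, 116, 107, 154, 151 and 124 endothelial nuclei in the order of their numbers. This was 1.55, 1.11, 1.497, 1.40, 1.66 and 1.70% of the nuclei of each library, with a mean of 1.48% ± 0.213 (SD, n = 6). Library 2 had the lowest share, with a 95% Wilson interval of 0.925 to 1.33%, which lay below the interval of 1.43 to 2.02% in library 6, and these intervals cover counting error only. Endothelial nuclei were shallow, with a median of 2258.5 UMIs and 1356.5 genes, against a median of 6116 UMIs in the other nuclei. Summed over a library they gave 321367 to 494189 UMIs, out of library totals of 70183544 to 95175260 UMIs. Levels are given as CPM, the summed count of a gene in the nuclei of a class in a library, per 1000000 UMIs of those nuclei, with no correction for gene length. In the endothelial sums 3 molecules were worth 6.07 to 9.34 CPM.

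**Figure D1:**
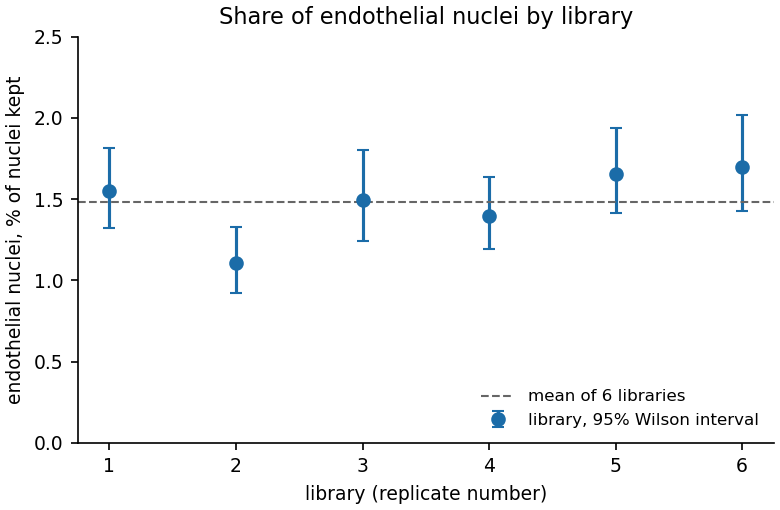
Share of endothelial nuclei among nuclei past the quality limits, in percent, for libraries 1 to 6, with 95% Wilson intervals as bars and the mean of the 6 libraries as a dashed line. The shares lie between 1.11% in library 2 and 1.70% in library 6.

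The label was checked against genes that the rule did not use. Cldn5, claudin 5, the main sealing protein of the brain endothelial tight junction, averaged 214 ± 42.9 CPM in endothelial nuclei, 1.93 ± 2.25 CPM in mural nuclei and 0.737 CPM in all other nuclei (SD, n = 6). At least 1 Cldn5 molecule was seen in 333 endothelial nuclei (41.6%, and 30.5 to 53.3% by library), against 0.785% of mural nuclei and 0.546% of the other nuclei. With every nucleus drawn down to 1000 UMIs, and 15 endothelial and 1580 other nuclei under that depth left out, the expected shares were 21.3% of endothelial nuclei, 0.310% of mural nuclei and 0.136% of the other nuclei. The endothelial share thus stood far above the shares of mural and other nuclei at equal depth. Free RNA in the droplets was not estimated. The other nuclei also include some just outside the limit on Flt1, whose Cldn5 is given below. The 13 endothelial markers other than Flt1 summed to 11095 to 14717 CPM in the endothelial nuclei of the 6 libraries, 122 to 222 CPM in mural nuclei, 136 to 420 CPM in fibroblast nuclei and 35.7 to 46.9 CPM in all other nuclei.

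Flt1 is VEGF receptor 1, which binds VEGF tightly and limits its action on Kdr. The median endothelial nucleus held 10 Flt1 molecules, the highest 54, and 450 nuclei held 10 or more. Just inside the threshold, 52 nuclei with exactly 4 Flt1 molecules had 211 CPM of Cldn5. Just outside it, 53 nuclei with 3 Flt1 molecules that met the other limits had 182 CPM of Cldn5, and the 73 nuclei with 2 molecules had 64.9 CPM. The 12 markers other than Flt1 and Cldn5 together stood at 11779 CPM at 4 Flt1 molecules and 7423 CPM at 3. Levels of these markers were thus lower at 3 molecules than at 4, with no sharp break at the limit. A limit of 3 molecules would have kept 853 nuclei in all. Summed pericyte markers stood at 277 CPM at 3 Flt1 molecules, 321 CPM at 4, 17.6 CPM at 5 and 31.2 CPM at 10 or more.

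**Figure D2:**
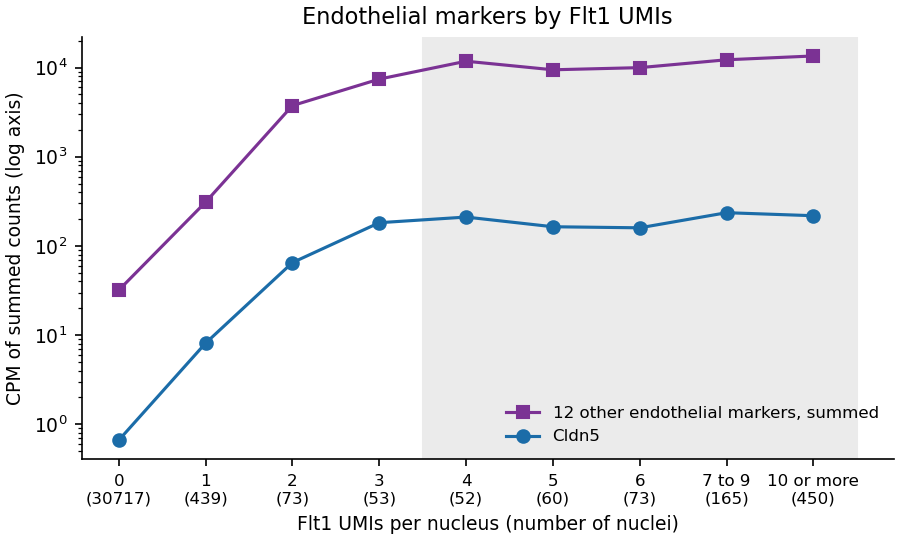
Level of Cldn5 and summed level of the 12 other endothelial markers, in CPM on a log axis, by the number of Flt1 molecules in nuclei that met the other limits; the number of nuclei is in brackets and the shaded part was kept as endothelial. Cldn5 stands at 0.662 CPM with no Flt1 molecule, 182 CPM with 3, 211 CPM with 4 and 218 CPM with 10 or more.

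Markers of vessel wall cells were low, while those of glia were not. The 8 pericyte markers, among them Pdgfrb and Rgs5 that the rule capped, summed to 18.7 to 111 CPM in endothelial nuclei, with Higd1b at 0. Of the 4 smooth muscle markers Acta2, Tagln and Cnn1 were at 0. The 7 fibroblast markers, of which only Col3a1 was at 0, summed to 4.05 to 85.5 CPM in endothelial nuclei, against 16.0 to 27.8 CPM in all other nuclei, with libraries 2 (40.5 CPM) and 3 (85.5 CPM) above that range. The 7 astrocyte markers summed to 1920 to 3462 CPM in endothelial nuclei, against 3218 to 4086 CPM in all other nuclei, and the 8 neuron markers to 814 to 1431 CPM, against 4179 to 4637 CPM. The 6 oligodendrocyte markers summed to 837 to 1770 CPM in endothelial nuclei, against 1129 to 1736 CPM in all other nuclei, so their ranges overlapped. The 6 microglia markers summed to 258 ± 62.4 CPM in endothelial nuclei and 156 ± 16.6 CPM in all other nuclei. At least 3 molecules of another class's markers were found in 365 endothelial nuclei (45.6%), most often of neurons (228 nuclei), astrocytes (133) or oligodendrocytes (119). A doublet caller marked 69 endothelial nuclei (8.62%), 25 of them in library 1. These nuclei stayed in, and the counts of calls without either kind are given in the closing section. The 4 lymphatic markers summed to 43.9 to 102 CPM in endothelial nuclei, against 27.0 to 39.5 CPM in all other nuclei, with Lyve1 at 0 and Flt4, which blood vessels also use, at 43.5 CPM. Markers of red blood cells, 4 hemoglobin genes, averaged 25.0 ± 10.6 CPM in endothelial, 1.98 ± 2.21 CPM in mural and 1.90 ± 0.860 CPM in all other nuclei. The source of this RNA was not tested. The 5 cell division genes summed to 0 to 12.4 CPM in endothelial nuclei, against 8.33 to 11.9 CPM in all other nuclei. The 8 early response and stress genes averaged 44.6 ± 19.0 CPM in endothelial nuclei and 29.7 ± 5.91 CPM in all other nuclei, with Hspa1a and Hspa1b at 0 in endothelial nuclei. Pairs of libraries shared 12 to 43 barcodes, at most 0.433% of the smaller library.

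The genes that set endothelial nuclei most apart from all other nuclei, by the ratio of mean CPM with 10 CPM added to each, were Flt1 (263-fold), Slco1a4 (254-fold), Mecom (164-fold), Adgrl4 (161-fold), Lef1 (108-fold), Ptprb (106-fold) and Abcb1a (96.4-fold). This ratio is a description with no test, since the nuclei were chosen by Flt1. Slco1a4 encodes an organic anion transporter, Mecom a zinc finger transcription factor, Adgrl4 an adhesion receptor of endothelial cells, Lef1 a transcription factor of the Wnt pathway, Ptprb a phosphatase that acts on the receptor Tek, and Abcb1a the P-glycoprotein drug pump. Although they were 1.47% of nuclei, endothelial nuclei held 74.7% of all Slco1a4 molecules, 73.4% of Adgrl4, 67.7% of Abcb1a and 65.5% of Lef1. Slco1a4 has close relatives in a gene cluster and Abcb1a a near copy, Abcb1b. The sources used here do not say how reads shared by such copies, or by overlapping genes on opposite strands, were counted, so levels of such genes are uncertain.

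The promoters of 3 of these genes are shown because their RNA separated endothelial nuclei from all others, and because Erg and Fli1, which were high in the same nuclei, belong to the ETS family, whose members are known to bind sites with a GGAA core. The letters searched were AGGAAG on both strands, which reads CTTCCT on the other strand, and its copies are in capitals. Each line gives the 250 bases before a start of the gene in the RefSeq annotation of GRCm38.p6, 5′ to 3′ along the gene.
Slco1a4, chr6:141856221-141856470, minus strand: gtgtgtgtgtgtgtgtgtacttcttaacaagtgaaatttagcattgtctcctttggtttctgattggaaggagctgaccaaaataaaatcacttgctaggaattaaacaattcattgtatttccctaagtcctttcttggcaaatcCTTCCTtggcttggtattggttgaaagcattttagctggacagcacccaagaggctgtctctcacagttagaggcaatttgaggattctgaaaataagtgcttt
Adgrl4, chr3:151437632-151437881, plus strand: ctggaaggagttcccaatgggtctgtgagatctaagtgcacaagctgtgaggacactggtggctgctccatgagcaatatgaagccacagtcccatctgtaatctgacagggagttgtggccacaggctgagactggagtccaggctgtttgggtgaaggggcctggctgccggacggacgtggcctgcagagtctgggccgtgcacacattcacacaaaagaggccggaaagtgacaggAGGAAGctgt
Abcb1a, chr5:8566841-8567090, plus strand: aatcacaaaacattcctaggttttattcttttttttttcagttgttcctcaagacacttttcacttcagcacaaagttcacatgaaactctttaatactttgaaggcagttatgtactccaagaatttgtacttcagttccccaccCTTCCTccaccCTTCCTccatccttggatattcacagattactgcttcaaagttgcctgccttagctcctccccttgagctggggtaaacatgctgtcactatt
Adgrl4 had 1 copy of AGGAAG close to its start, Slco1a4 had 1 copy of CTTCCT, and Abcb1a had 2. The 3 genes shown all held the letters, and they were not simply the 3 with the highest ratios. Slco1a4 (254-fold) came next after Flt1 (263-fold). Mecom (164-fold) stood above Adgrl4 (161-fold), and Lef1 (108-fold) and Ptprb (106-fold) above Abcb1a (96.4-fold). Of the 20 genes with the highest ratio, 16 had a start in the table, and 11 of these genes held the letters at any start. They had 26 starts in all, and 14 of these starts (53.8%) held the letters, against 29.5% of all 32851 starts. Starts of 1 gene are not independent, and no test was made. A match is a description of the sequence and not evidence that a factor binds there.

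To compare endothelial nuclei with another vascular cell, mural nuclei were taken as those with at least 3 molecules of Pdgfrb and Rgs5 together and at most 1 of Flt1, of Gad1 and Gad2 together, and of the fibroblast genes Dcn, Col1a2 and Col3a1 together. There were 382, with 51 to 71 per library. Counts were summed per library and class and tested with edgeR's quasi-likelihood test with library as a block, and p-values were adjusted by the Benjamini-Hochberg method over 5603 genes. Of these, 2186 (39.0%) passed at an adjusted p under 0.05, with 1071 (19.1%) higher and 1115 (19.9%) lower in endothelial nuclei, so a call on its own says little about a gene and sizes are given for each. The classes were cut on Flt1, Pdgfrb and Rgs5 in the same nuclei, so genes of a cell that makes these had to differ, and the genes of the rule were not tested. The mural nuclei carried more astrocyte RNA: the 7 astrocyte markers summed to 1920 to 3462 CPM in endothelial nuclei and 7115 to 15256 CPM in mural nuclei, and at least 10 molecules of Slc1a2, Slc1a3 and Aqp4 together were found in 43 endothelial and 125 mural nuclei. All 6 astrocyte markers tested were lower in endothelial nuclei, with a median log2 difference of -2.10. Leaving those nuclei out of both classes brought the median sum to 1194 CPM in endothelial and 1178 CPM in mural nuclei. Then 1515 of 4215 genes (35.9%) passed, 868 higher (20.6%) and 647 lower (15.3%). Of the 1071 higher calls 960 were still tested and 750 kept, and of the 1115 lower calls 778 were still tested and 481 kept. Values from that second fit are given below for many genes and lists whose call or size changed, but not for all.

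Membrane carriers of small nutrients were higher in endothelial nuclei. Of 23 solute carriers on a list of barrier genes, 20 passed the filter on low counts, 19 were higher in endothelial nuclei than in mural nuclei, none was lower and 1 did not pass. The median log2 difference was 4.16, against 0.01 over all genes tested, of which 19.1% were higher. Without the astrocyte-marked nuclei, 18 of 19 were higher, against 20.6% of all genes. The list was made of known barrier genes, and a gene could pass the filter through 1 class alone. Its count is thus a description, and the counts of the lists below carry the same limit.

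Slc2a1, the glucose transporter GLUT1 of the barrier, had 285, 341 and 426 CPM (lowest, median and highest library) in endothelial nuclei and 7.81, 12.9 and 28.1 CPM in mural nuclei. Every endothelial value lay far above every mural one. The log2 difference was 4.43 ± 0.22 (SE, adjusted p = 1.9e-11, higher in 6 of 6 libraries). Slc7a5, the large neutral amino acid transporter LAT1, had 181, 267 and 356 CPM in endothelial nuclei and 0, 6.04 and 13.4 CPM in mural nuclei, a log2 difference of 5.28 ± 0.29 (adjusted p = 8e-11). Its heavy chain Slc3a2, which joins LAT1 and other light chains, was the exception: it averaged 46.9 ± 12.9 CPM in endothelial and 34.2 ± 8.12 CPM in mural nuclei, with overlapping libraries and an adjusted p of 0.245.

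Slco1a4 had 3366, 4367 and 4787 CPM in endothelial nuclei and 3.35, 9.66 and 22.9 CPM in mural nuclei, a log2 difference of 8.40 ± 0.23 (adjusted p = 2.3e-14). Slco1c1, a carrier of thyroid hormone that astrocytes also use, averaged 1995 ± 258 CPM in endothelial nuclei and 191 ± 65.6 CPM in mural nuclei. Its log2 difference was 3.31 ± 0.19 and became 6.81 without the astrocyte-marked nuclei. The cationic amino acid carrier Slc7a1 (log2 difference 4.53), the zinc importer Slc39a10 (4.50), the iron exporter ferroportin Slc40a1 (5.60), the thiamine carrier Slc19a3 (4.90) and the monocarboxylate carrier Slc16a1 (4.15) were higher as well. Mfsd2a, which carries lysophosphatidylcholine with omega-3 fatty acids and holds down vesicle traffic, averaged 49.5 ± 10.04 CPM in endothelial nuclei and 4.37 ± 3.58 CPM in mural nuclei, and did not pass the filter once the astrocyte-marked nuclei were left out. Slc22a8, an organic anion exporter, had a log2 difference of 1.59 ± 0.19, and of 0.85 in the second fit.

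The efflux pumps of the barrier stood apart as single genes. Of 11 ABC transporters 8 were tested, 5 were higher, 1 was lower and 2 did not pass. Among all genes tested 19.1% were higher and 19.9% lower. Abcb1a had 1057, 1206 and 1365 CPM in endothelial nuclei, while all mural nuclei together held 2 of its molecules. The ratio was 1008-fold, with a 95% counting interval of 279 to 8326 (adjusted p = 1.1e-13). Abcg2, the breast cancer resistance protein, averaged 752 ± 73.4 CPM in endothelial and 39.6 ± 20.02 CPM in mural nuclei, and Abcc4, the pump MRP4, 797 ± 118 CPM in endothelial and 35.6 ± 23.7 CPM in mural nuclei. Their log2 differences were 4.18 ± 0.21 and 4.30 ± 0.26. Abcc5 was lower by a small margin (-0.43 ± 0.16, adjusted p = 0.0355). It did not pass without the astrocyte-marked nuclei (adjusted p = 0.229) or without library 3, 5 or 6. Abca1, a cholesterol exporter abundant in glia, averaged 126 ± 19.6 CPM in endothelial and 138 ± 36.7 CPM in mural nuclei (adjusted p = 0.351). Without the astrocyte-marked nuclei it was higher in endothelial nuclei, with a log2 difference of 2.06 (adjusted p = 0.00016).

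**Figure D3:**
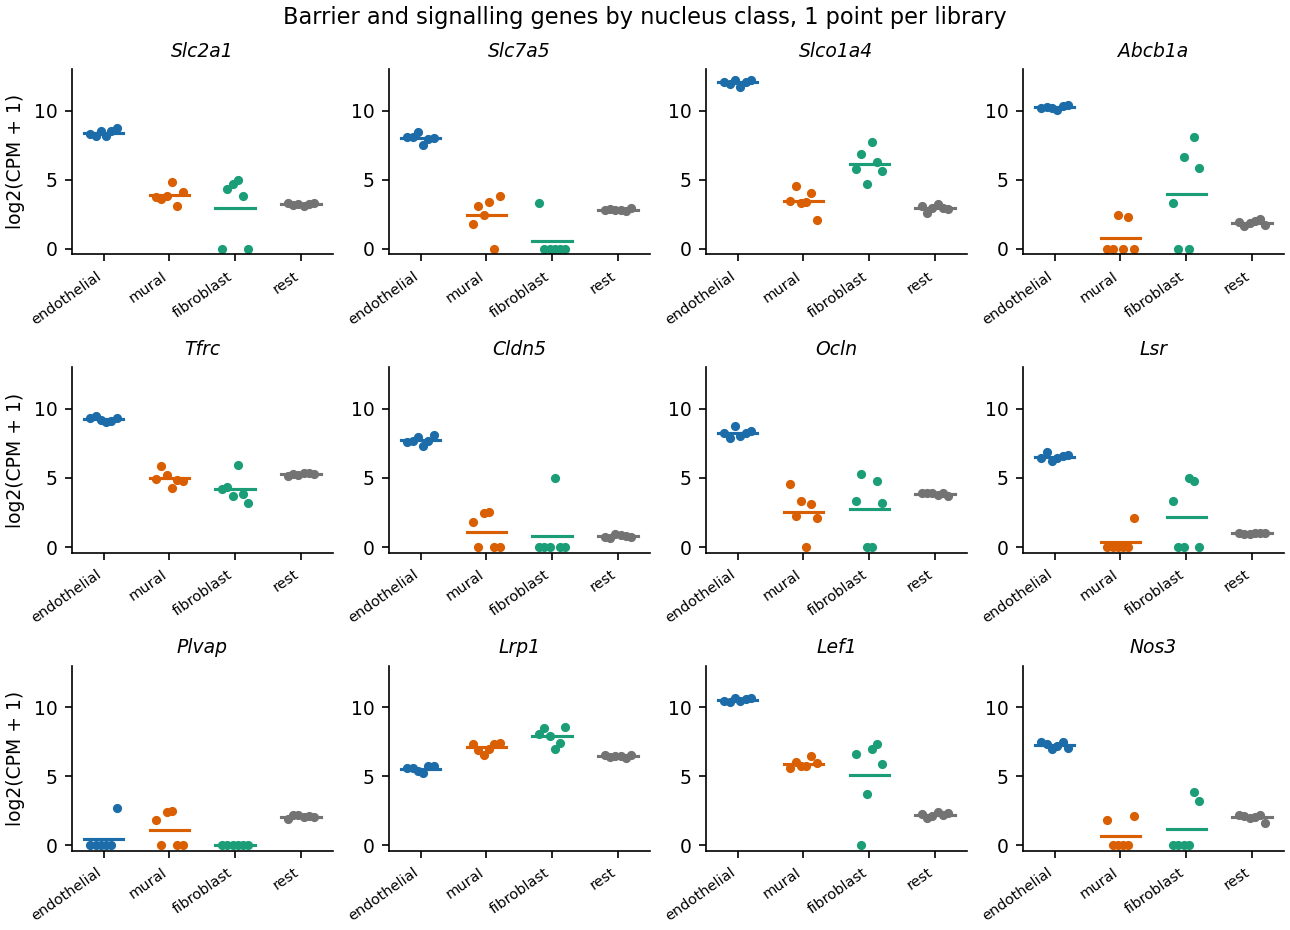
Level of 12 barrier and signalling genes as log2(CPM + 1) in endothelial, mural and fibroblast nuclei and in all nuclei that are not endothelial (rest); each point is 1 library and each horizontal line the mean of the points. Cldn5 lies at 155 to 277 CPM in endothelial nuclei and at 0 to 4.68 CPM in mural nuclei, while Lrp1 lies at 36.3 to 53.0 CPM in endothelial nuclei and at 93.1 to 164 CPM in mural nuclei.

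Tight junction genes were higher in endothelial nuclei with 1 exception. Of 19 on the list 13 were tested, 12 were higher and Jam3 was lower, with a median log2 difference of 1.64. Without the astrocyte-marked nuclei 10 of 12 were higher. Shares over all genes tested were 19.1% higher in the main fit and 20.6% in the second. Cldn5 had 155, 205 and 277 CPM in endothelial nuclei, and the mural nuclei of all libraries held 3 molecules of it. The ratio was 117-fold, with a counting interval of 39.9 to 571 (adjusted p = 5.5e-11). Ocln, occludin, a membrane protein of the junction, had 236, 300.03 and 436 CPM in endothelial nuclei and 0, 5.82 and 22.4 CPM in mural nuclei, a log2 difference of 4.99 ± 0.29. Lsr, angulin 1, which marks corners where 3 cells meet, averaged 93.0 ± 14.8 CPM in endothelial nuclei, against a single molecule in mural nuclei. The scaffold Tjp1 (ZO-1), which joins junctions to actin in many cell types, was detected in both classes. It averaged 2104 ± 198 CPM in endothelial nuclei and 689 ± 79.3 CPM in mural nuclei, a log2 difference of 1.52 ± 0.12.

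Esam, an adhesion molecule shared with pericytes, differed by 2.49 ± 0.25 on the log2 scale. Cgnl1, paracingulin, differed by 0.86 ± 0.15 (adjusted p = 0.00012), but by 0.05 (adjusted p = 0.833) without the astrocyte-marked nuclei. Jam3 averaged 49.5 ± 10.6 CPM in endothelial nuclei and 76.4 ± 18.8 CPM in mural nuclei, a log2 difference of -0.73 ± 0.20 (adjusted p = 0.00735), with overlapping libraries. It did not pass with DESeq2 or with no filter on low counts.

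Receptors known to bind or carry proteins at the barrier were mixed. Of 18 receptor and vesicle genes 11 were tested, 8 were higher, 2 were lower and 1 did not pass. Among all genes tested 19.1% were higher and 19.9% lower. Tfrc, the transferrin receptor that brings in iron, had 523, 605 and 731 CPM in endothelial nuclei and 18.7, 28.6 and 57.4 CPM in mural nuclei, a log2 difference of 4.14 ± 0.17 (adjusted p = 2e-12). Igf1r, the receptor of insulin-like growth factor 1, averaged 3581 ± 276 CPM in endothelial and 445 ± 96.1 CPM in mural nuclei (2.94 ± 0.14), and Insr, the insulin receptor, 690 ± 80.3 CPM in endothelial and 250 ± 45.8 CPM in mural nuclei (1.38 ± 0.12). Lrp1, a lipoprotein receptor, went the other way. It had 36.3, 46.6 and 53.0 CPM in endothelial nuclei and 93.1, 141 and 164 CPM in mural nuclei, with no overlap and a log2 difference of -1.66 ± 0.18 (adjusted p = 4.4e-07), which was -2.03 in the second fit.

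The caveola proteins Cav1 (89.2 ± 25.5 CPM in endothelial nuclei, log2 difference 3.99 ± 0.41) and Cavin2 (74.7 ± 23.4 CPM, against 1 molecule in mural nuclei) were higher in endothelial nuclei. Plvap, the diaphragm protein of leaky fenestrated vessels, was at 0 in the endothelial nuclei of 5 libraries. In library 6 it had 5.49 CPM, from 2 nuclei with 1 molecule each.

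Receptors of the VEGF and angiopoietin families were higher in endothelial nuclei, while of the 3 ligands tested Vegfc was higher and Vegfa and Angpt1 were lower. Of 17 genes 12 were tested, with 10 higher and these 2 lower, against 19.1% higher and 19.9% lower over all genes. Kdr, VEGF receptor 2, had 103, 125 and 159 CPM in endothelial nuclei and no molecule in mural nuclei, at least 69.6-fold higher (adjusted p = 3.1e-08, with a floor of 3 molecules over the group). Tek, the angiopoietin receptor TIE2, had 670, 798 and 850 CPM in endothelial nuclei and 0, 7.17 and 9.36 CPM in mural nuclei, a log2 difference of 6.83 ± 0.24. Its partner Tie1 averaged 121 ± 21.1 CPM in endothelial nuclei and had 1 molecule in mural nuclei. Ptprb had 1524, 1635 and 2040 CPM in endothelial nuclei and 0, 2.34 and 12.4 CPM in mural nuclei, a log2 difference of 8.26 ± 0.31. Eng, endoglin, a co-receptor for BMP ligands, differed by 2.58 ± 0.18, and Nrp1, a co-receptor of VEGF and semaphorins, by 0.96 ± 0.17.

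Vegfc, a ligand of VEGF receptors 2 and 3, averaged 178 ± 48.5 CPM in endothelial and 18.4 ± 7.70 CPM in mural nuclei (3.03 ± 0.26, adjusted p = 2.4e-08), a difference that was 4.48 in the second fit. Vegfa averaged 16.2 ± 4.53 CPM in endothelial and 51.7 ± 9.92 CPM in mural nuclei (-1.75 ± 0.26, adjusted p = 2.1e-05), and Angpt1, the ligand of Tek, 31.1 ± 11.5 CPM in endothelial and 148 ± 56.5 CPM in mural nuclei (-2.31 ± 0.26, adjusted p = 6.4e-07). Neither Vegfa nor Angpt1 passed the filter without the astrocyte-marked nuclei, so these 2 calls rest on classes of unequal astrocyte content, whose part in them was not tested. Flt4, VEGF receptor 3, averaged 43.5 ± 12.2 CPM in endothelial nuclei and was too low for the test.

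In the Wnt pathway, a nuclear factor, feedback targets and parts of the receptor complex were higher in endothelial nuclei. Of 21 genes 16 were tested, 10 were higher, 2 lower and 4 did not pass. Among all genes tested 19.1% were higher and 19.9% lower. Lef1 had 1329, 1448 and 1595 CPM in endothelial nuclei and 47.3, 56.8 and 86.0 CPM in mural nuclei. Its log2 difference was 4.51 ± 0.15 (adjusted p = 2.2e-13), and 3.71 in the second fit. Inhibitors that the pathway itself switches on were higher too. Apcdd1 averaged 304 ± 29.1 CPM in endothelial and 42.4 ± 16.6 CPM in mural nuclei (2.74 ± 0.20). Nkd1 averaged 107 ± 19.9 CPM in endothelial and 9.03 ± 9.14 CPM in mural nuclei (3.50 ± 0.40), and Notum, which strips the lipid from WNT proteins, 55.7 ± 12 CPM in endothelial and 3.41 ± 3.44 CPM in mural nuclei (3.93 ± 0.45). Adgra2 (GPR124) and Reck, which together let endothelial cells answer WNT7 ligands, differed by 1.81 ± 0.23 and 1.72 ± 0.23.

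Axin2, another common target of the pathway, averaged 40.4 ± 13.3 CPM in endothelial and 37.5 ± 14.6 CPM in mural nuclei (adjusted p = 0.836). The other TCF factors did not follow Lef1. Tcf7l2 had 152, 188 and 262 CPM in endothelial nuclei and 231, 294 and 408 CPM in mural nuclei, a log2 difference of -0.68 ± 0.14 (adjusted p = 0.00058). Without the astrocyte-marked nuclei the difference was 0.02 (adjusted p = 0.957). Tcf7l1 gave -0.55 ± 0.21 (adjusted p = 0.0486), a call lost without any 1 of libraries 1, 2, 3, 4 and 6, and 0.20 (adjusted p = 0.607) in the second fit. Fzd6, a Wnt receptor, differed by 0.56 ± 0.15 (adjusted p = 0.00482), and by -0.18 (adjusted p = 0.392) in the second fit. These 3 calls were thus lost when the nuclei with astrocyte markers were left out, while those of Lef1, Apcdd1, Nkd1, Notum, Adgra2 and Reck held.

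Several transcription factors of the endothelial lineage were nearly absent from mural nuclei. Of 29 on the list 20 were tested, 14 were higher, 2 were lower and 4 did not pass. Among all genes tested 19.1% were higher and 19.9% lower. Mecom had 2683, 2934 and 3493 CPM in endothelial nuclei, against 2 molecules in all mural nuclei, a ratio of 2473-fold with a counting interval of 684 to 20422 (adjusted p = 2.3e-14). Erg, an ETS factor that holds endothelial identity, had 295, 315 and 346 CPM in endothelial nuclei, against 2 molecules in mural nuclei (265-fold, counting interval 73.1 to 2191). Its relatives Fli1 and Ets1 differed by 4.88 ± 0.20 and 2.15 ± 0.17. Sox17, a factor of arterial and barrier endothelium, averaged 94.2 ± 13.6 CPM in endothelial nuclei and had no molecule in mural nuclei, at least 51.3-fold higher. Klf2, a factor induced by blood flow, ranged from 59.1 to 181 CPM over the endothelial nuclei of the libraries, against 1 molecule in mural nuclei.

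Some factors were shared with mural cells. Ebf1 had 1824, 2386 and 2932 CPM in endothelial nuclei and 1184, 1996 and 2633 CPM in mural nuclei, so the groups overlapped (0.19 ± 0.15, adjusted p = 0.356). It was lower in endothelial nuclei in the second fit (-0.63, adjusted p = 0.00022). Mef2c behaved alike, with a log2 difference of -0.04 (adjusted p = 0.840) and of -0.65 (adjusted p = 0.00064) in the second fit. Nr2f2 (COUP-TFII), known as a factor of venous endothelium, averaged 44.1 ± 12.6 CPM in endothelial nuclei and 111 ± 22.1 CPM in mural nuclei (-1.40 ± 0.22, adjusted p = 3.9e-05).

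**Figure D4:**
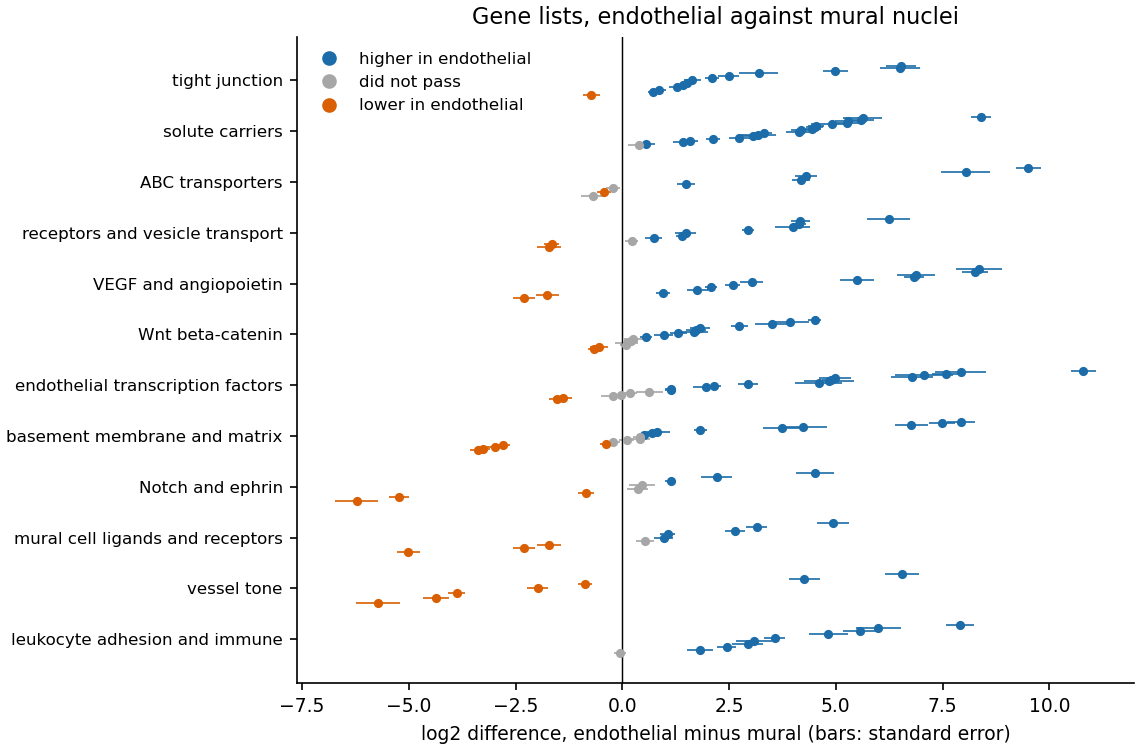
Log2 difference, endothelial minus mural nuclei, of each tested gene of 12 lists, with its standard error as a bar; color gives whether the gene was higher, lower or did not pass. Solute carriers, with a median of 4.16, lie almost wholly to the right of 0, while vessel tone genes, with a median of -1.98, lie mostly to the left.

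The basement membrane, the sheet of matrix that both cells share, was divided by chain. Of 21 matrix genes 18 were tested, 9 were higher, 5 were lower and 4 did not pass, with a median log2 difference of 0.46. Without the astrocyte-marked nuclei 16 were tested, 5 were higher, 6 were lower and 5 did not pass, with a median of -0.03. Shares over all genes tested were 19.1% higher and 19.9% lower in the main fit, and 20.6% and 15.3% in the second. Fn1, fibronectin, had 346, 389 and 491 CPM in endothelial nuclei, against 2 molecules in mural nuclei (334-fold, counting interval 92.2 to 2762). Vwf, von Willebrand factor, which binds platelets, averaged 182 ± 45.3 CPM in endothelial nuclei, against 2 molecules in mural nuclei. Lama5, the alpha chain of endothelial laminin, averaged 55.3 ± 12.6 CPM in endothelial and 2.98 ± 5.63 CPM in mural nuclei (4.24 ± 0.55). Lama2, the alpha chain that mural cells and astrocytes deposit, had 90.6, 172 and 198 CPM in endothelial nuclei and 1271, 1437 and 1501 CPM in mural nuclei (-3.27 ± 0.17, adjusted p = 4.2e-11). The shared gamma chain Lamc1 (-2.80 ± 0.16) and the linker nidogen Nid1 (-2.99 ± 0.21) were lower as well, and so was the integrin Itga4 (-3.38 ± 0.20). Each of these 4 differences was larger in size in the second fit. Itga1 had a log2 difference of -0.38 ± 0.14 (adjusted p = 0.0432), a call lost without any 1 of libraries 2 to 6 but larger, at -1.11, in the second fit. Col4a1, a collagen IV chain, averaged 135 ± 30.5 CPM in endothelial and 95.8 ± 23.5 CPM in mural nuclei (adjusted p = 0.0709), and passed only without library 2.

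Of the genes that act between the 2 cell types, some ligands and some receptors were higher in endothelial nuclei, and others were lower. Pdgfb, the growth factor by which endothelium recruits pericytes, had 93.1, 131 and 174 CPM in endothelial nuclei and 0, 4.17 and 9.36 CPM in mural nuclei (4.93 ± 0.37, adjusted p = 4.3e-09). Its receptor gene Pdgfrb was part of the rule and is not compared. Jag2, a Notch ligand, averaged 65.9 ± 15.4 CPM in endothelial and 2.18 ± 2.75 CPM in mural nuclei (4.50 ± 0.44), while the receptor Notch3 had 5.49, 6.998 and 30.3 CPM in endothelial nuclei and 341, 483 and 715 CPM in mural nuclei (-5.23 ± 0.23, adjusted p = 4.9e-12). The chemokine Cxcl12 averaged 123 ± 35.4 CPM in endothelial and 13.03 ± 4.85 CPM in mural nuclei (3.15 ± 0.25). Edn1, endothelin 1, a constrictor of vessels, averaged 78.0 ± 34.2 CPM in endothelial nuclei, with 181 molecules there and 1 in mural nuclei, and did not pass the filter on low counts. Its receptor Ednra had 0, 7.93 and 12.6 CPM in endothelial nuclei and 127, 232 and 342 CPM in mural nuclei (-5.02 ± 0.27, adjusted p = 5e-11). Over the whole list of 16 mural ligands and receptors, 9 were tested, 5 were higher, 3 lower and 1 did not pass. Receptors were among the higher genes, and the ligand Angpt1 was among the lower ones, so the list did not divide into ligands and receptors. In the second fit 7 were tested, 5 were higher, 1 lower and 1 did not pass. Shares over all genes tested were 19.1% higher and 19.9% lower, and 20.6% and 15.3% in the second fit.

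The nitric oxide route was divided between the 2 classes. Nos3, the endothelial synthase that makes nitric oxide, had 127, 153 and 178 CPM in endothelial nuclei, against 2 molecules in mural nuclei (128-fold, counting interval 35.3 to 1064). Both subunits of guanylate cyclase, which nitric oxide activates, were lower: Gucy1a1 averaged 6.88 ± 4.05 CPM in endothelial and 144 ± 51.4 CPM in mural nuclei (-4.36 ± 0.30), and Gucy1b1 22.8 ± 6.78 CPM in endothelial and 334 ± 99.4 CPM in mural nuclei (-3.88 ± 0.20). Pde5a, which breaks down the cyclic GMP that the enzyme makes, differed by -1.98 ± 0.25. Of 16 vessel tone genes 7 were tested, 2 were higher and 5 lower, and the same counts were found without the astrocyte-marked nuclei. Notch and ephrin genes gave 3 higher, 3 lower and 2 not passed of 8 tested, with a median log2 difference of 0.42. Without the astrocyte-marked nuclei they gave 2 higher, 3 lower and 1 not passed of 6 tested, with a median of -0.70. For both lists, the shares over all genes tested were 19.1% higher and 19.9% lower, and 20.6% and 15.3% in the second fit.

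Most immune and adhesion genes tested were higher in endothelial nuclei. Of 20 genes 10 were tested, 9 were higher in endothelial nuclei and 1 did not pass, against 19.1% higher over all genes tested. Pecam1 (CD31), an adhesion molecule of endothelial junctions, averaged 403 ± 45.3 CPM in endothelial nuclei, against 2 molecules in mural nuclei. Il1r1, the receptor of interleukin 1, had 196, 350 and 447 CPM in endothelial nuclei and 4.68, 29.5 and 45.9 CPM in mural nuclei (3.56 ± 0.25). Vcam1, which leukocytes bind, averaged 67.4 ± 17.8 CPM in endothelial and 17.9 ± 7.12 CPM in mural nuclei (1.81 ± 0.31). Icam1, another such molecule, had 0 to 13.8 CPM and B2m, the light chain of MHC class I, 25.9 to 44.5 CPM over the endothelial nuclei of the libraries, and neither was tested. Alcam averaged 382 ± 88.6 CPM in endothelial and 370 ± 49.7 CPM in mural nuclei (adjusted p = 0.771), and was higher in the second fit (0.92, adjusted p = 0.00087). Ly6c1, which has a near copy in Ly6c2, had 151 molecules in endothelial nuclei, against 1 in mural nuclei.

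By a rule of size, 10 genes were named in each direction among those called and changed the same way in every library. Toward endothelial nuclei they were Adgrl4, Mecom, Abcb1a, Dipk2b, Hmcn1, Ushbp1, Slco1a4, Cyyr1, Kdr and Ptprb. Adgrl4 had 5124 molecules in endothelial nuclei and 1 in mural nuclei, a ratio with a counting interval of 655 to 144330. Toward mural nuclei they were Mrvi1, Rgs4, Abcc9, Slc38a11, Pla1a, Atp13a5, Carmn, Pla2r1, Enpep and Vtn, several of them known pericyte genes. Mrvi1 and Rgs4 had no molecule in endothelial nuclei, at least 92.1-fold and 69.2-fold lower. Abcc9, a subunit of the pericyte potassium channel, averaged 2.11 ± 1.07 CPM in endothelial and 553 ± 213 CPM in mural nuclei, and Vtn, vitronectin, 2.24 ± 2.99 CPM in endothelial and 224 ± 53.9 CPM in mural nuclei. Atp13a5, a pericyte gene of brain, averaged 19.0 ± 20.4 CPM in endothelial and 3025 ± 776 CPM in mural nuclei. Its endothelial values ranged from 0 to 55.6 CPM.

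Another vascular comparison was made with fibroblast nuclei, defined by at least 4 molecules of Dcn, Col1a2 and Col3a1 together and at most 1 of Flt1, of Rgs5, and of Gad1 and Gad2 together. There were 78, and libraries 1, 2, 5 and 6, with 10 to 20 each, entered the test. At least 10 molecules of the astrocyte genes were in 38 of the 78, and with those left out only 1 library could be used, so the part of astrocyte RNA in this comparison was not tested. Of 4291 genes 1116 (26.0%) passed, with 599 (14.0%) higher and 517 (12%) lower in endothelial nuclei. The same endothelial libraries serve both comparisons, so the values are set side by side and no agreement between them is counted.

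Against fibroblasts 17 of 18 solute carriers, 8 of 11 tight junction genes and 4 of 7 ABC transporters were higher in endothelial nuclei. Over all genes tested the share was 14.0%, and the lists carry the limit given above. Cldn5 had 194, 202, 207 and 277 CPM in endothelial nuclei of libraries 1, 2, 5 and 6 and no molecule in fibroblast nuclei, at least 26.2-fold higher (adjusted p = 2.7e-05). Abcb1a had 1174, 1217, 1308 and 1365 CPM in endothelial nuclei and 8.89, 0, 275 and 58.0 CPM in fibroblast nuclei of those libraries (4.19 ± 0.55, adjusted p = 8.4e-05). Library 5 gave most of the fibroblast molecules. Slc22a8, higher against mural nuclei, did not pass against fibroblasts, at 234 ± 35.4 CPM in endothelial and 148 ± 59.0 CPM in fibroblast nuclei (0.69 ± 0.27, adjusted p = 0.0793, n = 4).

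Ebf1, shared with mural cells, was higher in endothelial than in fibroblast nuclei (3.50 ± 0.33, adjusted p = 5.2e-06). Lef1 had 1374, 1329, 1523 and 1576 CPM in endothelial nuclei and 97.8, 0, 157 and 58.0 CPM in fibroblast nuclei (4.21 ± 0.41, adjusted p = 6.4e-06). Of the 13 Wnt genes tested 4 were higher, 2 lower and 7 did not pass. Adgra2 and Reck were among those that did not pass. Lrp1 had 46.5, 46.7, 53.0 and 52.2 CPM in endothelial nuclei and 258, 351, 170 and 381 CPM in fibroblast nuclei (-2.48 ± 0.29, adjusted p = 2.5e-05). Genes toward fibroblasts included Slc6a13, a GABA and taurine carrier of the meninges, with no molecule in the endothelial nuclei of these libraries, at least 208-fold lower. Cemip, a hyaluronan-degrading protein, averaged 2.60 ± 0.455 CPM in endothelial and 1120 ± 805 CPM in fibroblast nuclei (n = 4).

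Endothelial cells change along the vessel tree, and nuclei were placed on an arterial or a venous side by 6 genes each. The arterial genes were Vegfc, Bmx, Efnb2, Gkn3, Sema3g and Hey1, and the venous ones Slc38a5, Nr2f2, Vwf, Vcam1, Il1r1 and Lcn2. With at least 1 molecule of one set and none of the other, 114 nuclei were arterial-side and 261 venous-side, while 94 held both and 331 neither. A stricter limit of 2 molecules, which was planned, left only 2 libraries with at least 10 nuclei on each side, so the looser limit was used. At 1 molecule a nucleus can be placed by a stray transcript, and the sides are mixtures. The median nucleus held 2198 UMIs on the arterial side and 2478 UMIs on the venous side. In the sums of a library 3 molecules were worth 37.1 to 110 CPM on the arterial side and 15.5 to 30.8 CPM on the venous side. Low side values below thus come from few molecules.

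Of 1915 genes tested, 23 (1.2%) passed, with 11 (0.574%) higher and 12 (0.627%) lower on the arterial side. Without the astrocyte-marked nuclei 32 of 1578 (2.03%) passed, 14 (0.887%) higher and 18 (1.14%) lower, and these held all 12 lower calls and all 10 higher calls that were still tested. Arl15, a small GTPase gene on the arterial list, had 1432, 3444 and 3997 CPM in arterial-side nuclei and 569, 655 and 873 CPM in venous-side nuclei. All 6 arterial values lay above all venous ones, with a log2 difference of 2.17 ± 0.23 (adjusted p = 0.00027). Cxcl12 had 124, 199 and 365 CPM on the arterial side and 22.1, 48.9 and 103 CPM on the venous side (2.02 ± 0.35, adjusted p = 0.013), a call lost without library 1, 3 or 4. Plekhh2 (1.83 ± 0.35), Plcb1, a phospholipase C (0.75 ± 0.13), Syne1, a nuclear envelope protein (0.99 ± 0.18), and Ebf1 (0.70 ± 0.15) were higher too, as were Itprid2, Lmo7, Gcnt2, Efr3b and Myo1e. Arl15 came from a list of 15 arterial genes outside the gate, of which only 2 were tested. The other, Mecom, did not pass and leaned to the venous side, lower on the arterial side in 4 of 6 libraries. It averaged 2755.5 CPM on the arterial and 3405.2 CPM on the venous side (-0.30 ± 0.17, adjusted p = 0.664). Cxcl12 is on a list of 9 capillary genes, of which 5 were tested and the other 4 did not pass. From the 13 venous genes outside the gate 3 were tested, 1 was lower on the arterial side and 2 did not pass. These 2 were Tshz2 (-0.55, adjusted p = 0.308) and Emcn (0.10, adjusted p = 0.931).

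Flrt2, a guidance and adhesion protein, had 112, 243 and 330.5 CPM on the arterial side and 853, 947 and 1305 CPM on the venous side (-2.13 ± 0.25, adjusted p = 0.00058). The values did not overlap between the sides. Sdk1, an adhesion molecule (-2.32 ± 0.37), Ndnf, a secreted factor (-2.17 ± 0.31), and Chn2, a Rac regulator (-1.40 ± 0.21), were lower on the arterial side, with Prkag2, Lmntd1, Tacc1, Sema6a and Frmd5. Dnm3 and the predicted gene Gm5127 were lower too, and are named although they fall outside the naming rule. The count of calls turned on single libraries, with 13 without library 1, 11 without library 2, 10 without library 4 and 19 to 22 without any other. It was 66 with predicted doublets left out. With no filter on low counts 15 genes were higher and 53 lower, and of the main calls all 12 lower ones but only 4 of the 11 higher ones (Arl15, Cxcl12, Plekhh2 and Syne1) were kept. That setting also changed the scaling, and moved the log2 differences of the 1915 genes by a median of -0.25. Among the genes named, Arl15 on the arterial side and Flrt2, Sdk1, Ndnf, Chn2 and Gm5127 on the venous side were called in each of these settings.

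**Figure D5:**
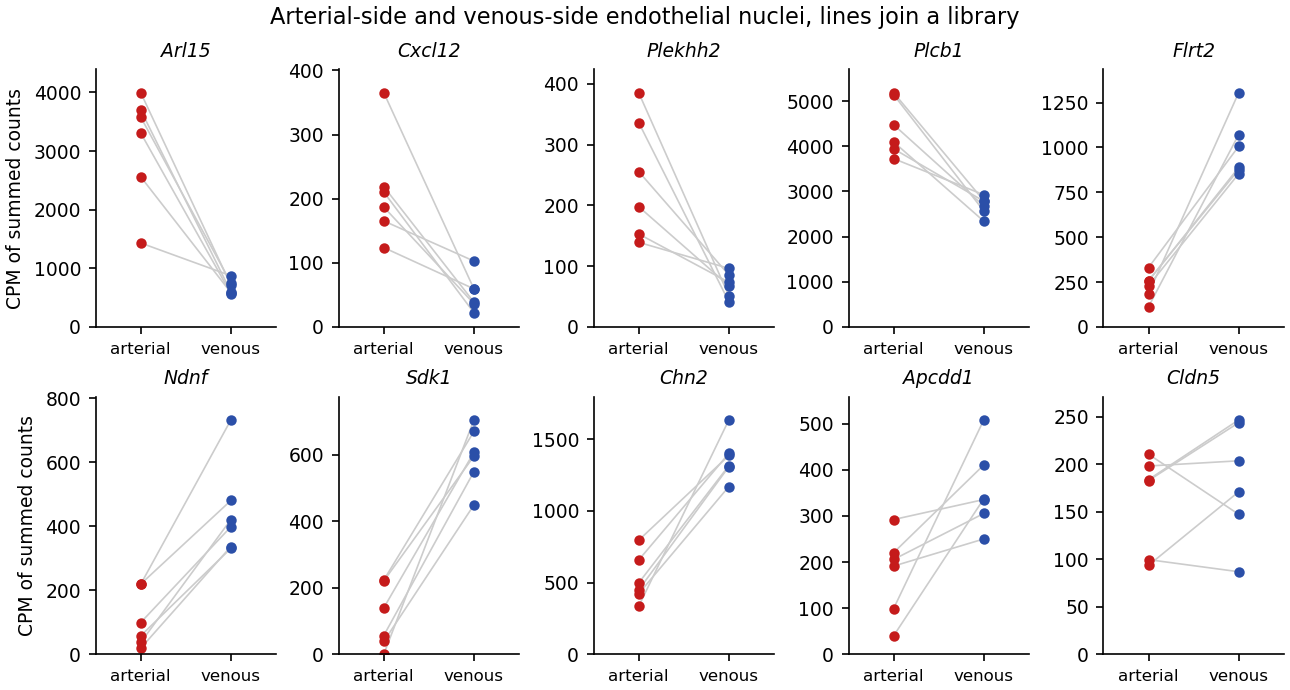
Level in CPM of selected genes in arterial-side and venous-side endothelial nuclei; each point is 1 library and each line joins its 2 sides. Arl15 is at 1432 to 3997 CPM on the arterial side and 569 to 873 CPM on the venous side, and Flrt2 at 112 to 330.5 CPM on the arterial and 853 to 1305 CPM on the venous side.

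Of the barrier lists 10 tight junction genes, 13 solute carriers and 6 ABC transporters were tested between the sides, and 0 of these 29 were called by edgeR or DESeq2. With 1.2% of all genes called, this count is near the background and says nothing particular about them. At an unadjusted p under 0.05 there were 5 of the 29 (17.2%), against 187 of all 1915 genes (9.77%). With no filter on low counts Slco1a4 and Tjp1 were called lower on the arterial side, and with predicted doublets left out 1 solute carrier, Slco1c1, was called. Of 9 VEGF and 9 Wnt genes 0 were called by either tool, with 3 at an unadjusted p under 0.05 (Nrp2, Eng and Apcdd1). With no filter on low counts Nrp2 and Apcdd1 were called. With predicted doublets left out 1 VEGF gene was called and 0 Wnt genes. Cldn5 averaged 161 ± 51.2 CPM on the arterial side and 183 ± 61.3 CPM on the venous side (-0.13 ± 0.26, adjusted p = 0.922), and Slco1a4 4156 CPM on the arterial and 4876 CPM on the venous side (-0.25, adjusted p = 0.660). These p-values do not show that the sides are alike, since the standard errors leave room for moderate differences. Apcdd1, the Wnt inhibitor, was lower on the arterial side in 6 of 6 libraries. It averaged 175 ± 90.6 CPM on the arterial and 358 ± 90.3 CPM on the venous side, and did not pass in the main fit (-1.08 ± 0.32, adjusted p = 0.181).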

How the data were processed

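PolyA RNA was turned into droplet libraries with the Chromium 3' v3 kit, per the labels' protocols. The authors deposited unnormalised UMI counts for each gene in each barcode. The submitters' processing notes name STAR and Cell Ranger 3.1.0, while the file headers give 5.0.0. The sources used here give no genome build, intron setting or strand setting, and counting introns raises long genes. The deposited matrices held 55537 barcodes already called as cells and 32285 genes. Barcodes under 500 genes (914) or over 5% mitochondrial UMIs (27) were removed. Scrublet (scanpy 1.11.5) marked doublets, which stayed in.

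Counts were summed per library and class. Libraries with at least 10 nuclei in both classes were tested with edgeR 4.0.16 (R 4.3.3): TMM factors, filterByExpr, the quasi-likelihood test with library as a block, and Benjamini-Hochberg adjustment over all genes tested. The block comes from the design, since both classes of a pair come from 1 library. Alternatives were RLE factors, no filter, DESeq2 1.42.0, no block, each library left out, other gates and nuclei thinned to 2000 UMIs. Others left out doublets, or endothelial nuclei with another class's markers. An alternative without astrocyte-marked nuclei was added after the data were seen. A gene with no count in a class was set against a floor of 3 counts over the class; counting intervals are exact at 95% and cover counting error only. Genes were named from lists, from the 10 largest called differences each way above 30 CPM with the same sign in every library, and from the 20 largest ratios to other nuclei. Members and lists were chosen with earlier results of these data known. The test was checked on simulated counts, with the same set spread for every gene and no effect of library, so the real spread was not matched. Of 2-fold changes it found 78.8% against mural nuclei, 38.7% against fibroblast nuclei and 57.8% between the sides. For 1.5-fold changes these shares were 15.2, 13.6 and 7.58%, and for 4-fold changes 100, 96.9 and 100%. Reads were not analysed here, and some genes are counted in the totals but not reported by name.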

Additional observations from a re-analysis of the deposited data

Results flagged for a closer look

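In 99 values, the share of endothelial nuclei and the levels of genes in them, 9 had 1 library far from the other 5, where chance alone flags about 1 in 20. Library 6 was high for Cxcl12 (192 CPM, others 90.9 to 119 CPM), Insr (843 CPM, others 619 to 702 CPM), Nkd1 (146 CPM, others 88.4 to 108 CPM) and Ptprb (2040 CPM, others 1524 to 1710 CPM). It also held all of the Plvap in endothelial nuclei (5.49 CPM, others 0). Library 4 was high for Jam3 (70.0 CPM, others 42.9 to 52.6 CPM) and for Cemip (10.4 CPM, others 2.02 to 3.11 CPM). Library 3 held all of the Slc6a13 (38.6 CPM, others 0), and library 2 had no Abcc9 (0 CPM, others 2.02 to 2.76 CPM). The values of Plvap, Cemip, Slc6a13 and Abcc9 come from few molecules.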

How the results depend on the processing

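The share of endothelial nuclei fell to 0.803% when endothelial nuclei with markers of another class (mixed nuclei) were left out. In that setting the mural and fibroblast classes kept their nuclei with markers of another class. It stayed within 1 SD of 1.48% under the other limits, at 1.29 to 1.58%. Calls against mural nuclei numbered 2186 and became 2111 without predicted doublets, 1937 without mixed nuclei, 1240 with at least 5 molecules of Pdgfrb and Rgs5, 1315 with nuclei thinned to 2000 UMIs and 2010 to 2135 with each library left out. Those against fibroblast nuclei numbered 1116 and became 1161 without predicted doublets, 1020 without mixed nuclei, 1676 with no filter on low counts and 885 to 1073 with each library left out. Those between arterial and venous sides numbered 23 and became 68 (15 higher, 53 lower) with no filter, 15 with DESeq2, 66 without predicted doublets and 10 to 22 with each library left out. All 12 lower calls and all 10 higher calls still tested were among the 66. With no library block the counts were 2184, 1211 and 33 for the same comparisons, so the pairing by library ended no comparison. With no filter the log2 differences of the genes moved by a median of 0.14 against mural nuclei, 0.30 against fibroblast nuclei and -0.25 between the sides, and 905 of 1115 and 345 of 517 lower calls were kept against mural and fibroblast nuclei. The cause of these moves was not tested, beyond the fewer nuclei or genes that a setting leaves.

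Against mural nuclei the sign turned for Abca1 (2.06), Alcam (0.92), Ebf1 (-0.63), Fzd6 (-0.18), Tcf7l1 (0.20) and Tcf7l2 (0.0224) without astrocyte-marked nuclei, and for Abca1 (0.95) and Tcf7l1 (0.20) with at least 5 molecules of Pdgfrb and Rgs5. RLE in place of TMM moved the median of all genes by at most 0.01 on the log2 scale. A limit of 8 molecules for fibroblasts, a limit of 3 for the sides, and the sides without mixed nuclei left too few libraries and were not run. Depth limits genes under about 9 CPM in endothelial nuclei, where a library holds 3 molecules or fewer. That level was 7.46 to 14.0 CPM in mural nuclei and 24.9 to 91.9 CPM in fibroblast nuclei. It was 37.1 to 110 CPM on the arterial side and 15.5 to 30.8 CPM on the venous side.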
